A study of Oncorhynchus mykiss with 12 samples.

Results

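Hepatic small RNA of adult rainbow trout that had been acutely refed was compared with that of fish left fasting. The labels name 3 groups of 4 fish. The noCHO fish (numbers 20, 21, 31 and 33) received a meal without carbohydrate, and the highCHO fish (38, 45, 49 and 50) received a high-carbohydrate meal. The fasted fish (7, 8, 10 and 13) received no meal. A fast of 4 days is recorded for the fish of all 3 groups, so the refed fish had also been fasted. All fish are labelled wild type, with Walbaum as the strain entry, each library came from 1 fish, and the labels do not state the hours between meal and sampling. The comparison took the 8 refed libraries of the 12, gave each meal group equal weight, and set their mean against the 4 fasted libraries. It asks which liver miRNAs change with feeding as such, and the account keeps to sequences that moved the same way after both meals, which were 214 of the 340 sequences with enough counts to test.

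MicroRNAs are short RNAs that pair with messenger RNAs, mainly through bases 2 to 8 from their 5′ end (the seed), and lower the output of the messengers they pair with. Each hairpin precursor can give a 5p and a 3p arm with different seeds. Families were grouped here by the number in the name, over both arms and shifted ends. Members of a family can therefore differ in seed. Trout are carnivores that clear dietary glucose slowly. In mammals, liver miRNAs of several families act on insulin signalling, lipid synthesis and sterol handling, which change between fasting and feeding.

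The sequences below carried the results. They are printed 5′ to 3′ as the deposited table gives them, with T for U and the seed in capitals. The prefix of a name is the fish species it was matched to (dre zebrafish, ssa Atlantic salmon, ipu channel catfish, ola medaka, pol Japanese flounder), L and R marks give bases added or lost at the 5′ and 3′ end, ss marks a substitution, and PC marks a predicted candidate. Those higher in refed fish come before those lower, and dre-let-7a is printed for comparison.
dre-let-7c-5p_1ss19GC: tGAGGTAGtaggttgtatcgtt
dre-let-7a: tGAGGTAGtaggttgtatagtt
dre-let-7d-5p: tGAGGTAGttggttgtatggtt
dre-let-7i: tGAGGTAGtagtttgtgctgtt
pol-let-7a-3p_R+1_1ss3AG: cTGTACAAcctactgccttcct
ssa-miR-145-3p_L+2R-1: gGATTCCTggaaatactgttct
ipu-miR-7550_L-1R-1: tCCGGCTCgaaggacc
PC-5p-219_12291: cCGTGGACgttcccgtgg
ssa-miR-19c-3p_R-1: tGTGCAAAtccatgcaaaact
dre-miR-19a-3p_L+1R-2: tTGTGCAAatctatgcaaaact
ola-miR-101b-5p: tCAGTTATcatggtaccggtgct
ola-miR-101a-5p_1ss12AT: tCAGTTATcactgtgctgatgc
dre-miR-101a: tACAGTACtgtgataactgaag
ipu-miR-1388_R-1: aTCTCAGGttcgtcagcccatg

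The 3 let-7 sequences that stand beside dre-let-7a share its seed, GAGGTAG, and dre-let-7c-5p_1ss19GC differs from dre-let-7a by A19C, counted from 1 at the 5′ end of dre-let-7a. The pair of miR-19 sequences is offset by 1 base, since dre-miR-19a-3p_L+1R-2 begins with an added base, so that a count by seed places them in different groups. The 2 miR-101-5p sequences share the seed CAGTTAT.

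Counts assigned to miRNA sequences ran from 197684 (highCHO fish 49) to 3057706 (noCHO fish 33) per library. The hepatocyte miRNA miR-122 (dre-miR-122_R-1) was the most abundant sequence, with 310741 ± 68537 CPM (counts per M after TMM scaling) in refed fish and 251103 ± 17158 CPM in fasted fish (SD, n = 8 and n = 4). The libraries were divided into 2 sets at 8 M raw reads. The 4 highCHO libraries and noCHO 31 and 33 had 8.10 to 9.80 M. In noCHO 20 and 21 and the 4 fasted libraries it was 6.37 to 7.95 M. Raw reads show no clear break at this line, with fasted 13 at 7.95 M and highCHO 50 at 8.10 M. The labels name no batch, and it is not known what the sets are. All fasted libraries lie under 8 M and all highCHO libraries over it, so set and meal cannot be told apart for highCHO. Some values are also given with the set as a term, or from the libraries under 8 M alone (noCHO 20 and 21 against fasted). They are given for every sequence past the threshold, but not for every list and family. As a term, the set is estimated only from noCHO 31 and 33 against noCHO 20 and 21. That difference is then carried over to highCHO, so these values do not separate set from meal there.

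Few sequences differed past the threshold between refed and fasted fish. With edgeR's quasi-likelihood test and Benjamini-Hochberg adjustment over the 340 sequences, 7 passed an adjusted p of 0.05, which is 2.06% of those tested. Of these, 5 were higher in refed fish (1.47%) and 2 were lower (0.588%), and all 7 had the same sign after both meals. At an unadjusted p under 0.05 there were 28 higher (8.24%) and 28 lower (8.24%), of which 54 had the same sign after both meals. Among those 54, the change was larger after the highCHO meal in 42 and larger after the noCHO meal in 12, and in 25 of them (46.3%) the smaller change was at least 0.5 of the larger. Over all 214 sequences with the same sign, 154 changed more after highCHO (72.0%), and in 78 (36.4%) the smaller change was at least 0.5 of the larger. Against the fasted fish, 21 sequences passed after the highCHO meal alone (6.18%) and 0 after the noCHO meal alone, where edgeR gave 23 at an unadjusted p under 0.05. Both meals were compared with the same 4 fasted libraries, so their changes are not independent of each other. The p is for the mean of both meals, in which changes of opposite sign cancel. Sequences picked by a small p therefore tend to share a sign and to have changes of like size. The counts of shared sign and like size among the 7 and the 54 are thus partly set by that choice. The count of 7 depended on single libraries, since it was 0 without fasted 8 or fasted 10 (35 and 36 at an unadjusted p under 0.05), 1 without highCHO 49, 2 without fasted 7 or fasted 13, 3 without noCHO 21 or highCHO 45, and 4 without highCHO 50.

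**Figure D1:**
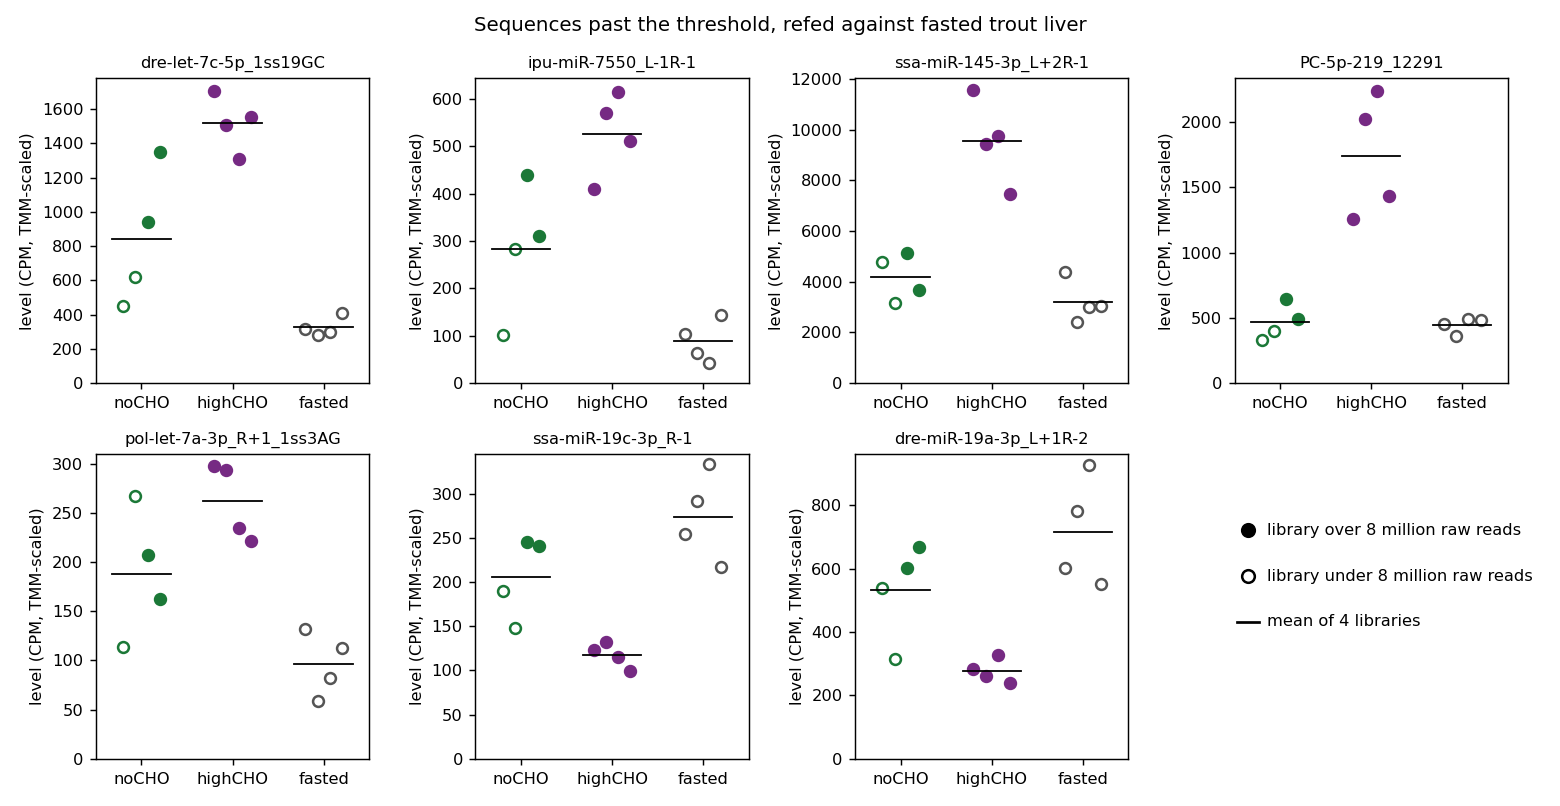
Level in CPM (TMM-scaled, linear axis from 0) of the 7 sequences past the threshold, 1 point per library in the noCHO, highCHO and fasted groups, with a line at the mean of 4 libraries and filled points for libraries over 8 M raw reads. All 8 refed points of dre-let-7c-5p_1ss19GC lie above the fasted points, while in the other 6 sequences at least 1 noCHO point lies within the fasted range.

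The let-7 family, which in mouse and human restrains growth and the insulin-PI3K-mTOR pathway, held 2 of the 5 higher sequences. The let-7c form dre-let-7c-5p_1ss19GC had 451, 617, 938 and 1348 CPM in noCHO fish 20, 21, 31 and 33, 1707, 1508, 1309 and 1555 CPM in highCHO fish 38, 45, 49 and 50, and 319, 281, 296 and 411 CPM in fasted fish 7, 8, 10 and 13. Every refed library lay above every fasted one, and the noCHO libraries over 8 M raw reads lay above the noCHO libraries under it. It was the only sequence with all 8 refed above all 4 fasted libraries (0.294% of those tested). The sequence rose 3.45-fold (log2 1.79, SE 0.27, adjusted p = 0.00756), with log2 changes of 1.36 (SE 0.29) after noCHO and 2.22 (SE 0.30) after highCHO. The meals did not differ past the threshold (highCHO minus noCHO 0.86, SE 0.29, adjusted p = 0.119). With the library set as a term the log2 change was 0.91 (SE 0.26, adjusted p = 0.110), and among libraries under 8 M it was 0.71 (SE 0.24, adjusted p = 0.268). It also missed the threshold without fasted 8 (adjusted p = 0.0709) or fasted 10 (adjusted p = 0.0568).

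Within the refed group, this let-7c form also differed between the libraries over and under 8 M raw reads. Its share of the reads of itself and dre-let-7a together was 3.32 to 3.81% in the 6 refed libraries over 8 M raw reads, 1.17 and 1.42% in noCHO 20 and 21, and 0.942 to 1.21% in the fasted libraries. Only noCHO 21 of the libraries under 8 M exceeded the fasted range of this share. The line at 8 M was a fixed value that may have been chosen with these data known, so this difference is not a test of the division. The part of the library set in this share was not tested.

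The other let-7 sequence past the threshold is a passenger arm, pol-let-7a-3p_R+1_1ss3AG. It had 114, 267, 208 and 162 CPM in noCHO fish, 298, 294, 234 and 222 CPM in highCHO fish, and 132, 58.6, 82.1 and 113 CPM in fasted fish (fish in the order above). Of the 8 refed libraries, 7 lay above the highest fasted one, and noCHO 20 lay within the fasted range. The arm rose 2.29-fold (log2 1.20, SE 0.27, adjusted p = 0.0456), by 0.96 (SE 0.30) after noCHO and 1.44 (SE 0.30) after highCHO on the log2 scale. The log2 change was 1.23 (SE 0.41, adjusted p = 0.192) with the set as a term and 1.00 (SE 0.40, adjusted p = 0.364) among libraries under 8 M. The call was lost without any 1 of fasted 7, 8, 10 or 13, noCHO 21, 31 or 33, or highCHO 45, 49 or 50, with adjusted p between 0.0510 and 0.227.

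Most let-7 sequences were higher after both meals, although 2 passed. Of the 22 tested, those 2 included, 17 were higher after both meals, 2 were lower after both and 3 differed in sign between meals, against 113, 101 and 126 of the 340 tested (33.2% higher and 29.7% lower). Their median log2 change was 0.38, with 0.32 after noCHO and 0.36 after highCHO, beside a median of 0.03 over all tested sequences. On library-total scaling, which moved the median of all tested sequences to −0.17, the let-7 median was 0.20. A total of 9 members, again with those 2, had an unadjusted p under 0.05, all higher. Of the 22 tested, 12 carry the seed GAGGTAG and the rest carry other seeds.

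Among the let-7 sequences with the common seed, dre-let-7d-5p came nearest to the threshold. It had 219, 271, 168 and 238 CPM in noCHO fish, 371, 253, 261 and 274 CPM in highCHO fish, and 160, 150, 142 and 179 CPM in fasted fish. Of the refed libraries only noCHO 31 fell within the fasted range. Its log2 change was 0.69 (SE 0.18, adjusted p = 0.0822). It passed without noCHO 31 (log2 0.75, adjusted p = 0.0409), with DESeq2 (0.70, adjusted p = 0.00609) and with limma (0.64, adjusted p = 0.0241).

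dre-let-7i was one of several members with the larger change after the meal without carbohydrate. It had 1128, 1504, 805 and 1291 CPM in noCHO fish, 1215, 1187, 924 and 712 CPM in highCHO fish, and 662, 646, 548 and 949 CPM in fasted fish, so 5 of 8 refed libraries lay above the fasted range. Its log2 change was 0.64 (SE 0.22, adjusted p = 0.222), with 0.75 after noCHO and 0.52 after highCHO. The abundant member dre-let-7a averaged 38828 ± 6527 CPM in refed fish and 29047 ± 4162 CPM in fasted fish (log2 0.41, SE 0.16, adjusted p = 0.222). fru-let-7e, dre-let-7g, fru-let-7h and dre-let-7b had log2 changes of 0.48 (SE 0.18), 0.42 (SE 0.16), 0.43 (SE 0.15) and 0.56 (SE 0.22). The members lower after both meals were scarce, namely dre-let-7f (8.76 ± 3.03 CPM in refed fish and 13.8 ± 5.52 CPM in fasted fish, log2 −0.60, SE 0.37) and dre-let-7a-2-p3_1ss3GA (log2 −0.18, SE 0.22).

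Reads shared by near-identical let-7 sequences were split into fractions by the authors, so the family was also read as a sum. Summed over the 27 sequences in the table with the seed GAGGTAG, the level averaged 67982 CPM in refed fish and 52333 CPM in fasted fish (log2 0.38, SE 0.17, adjusted p = 0.341 over 219 seed groups). dre-let-7a makes up most of that sum, and the sum did not pass.

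**Figure D2:**
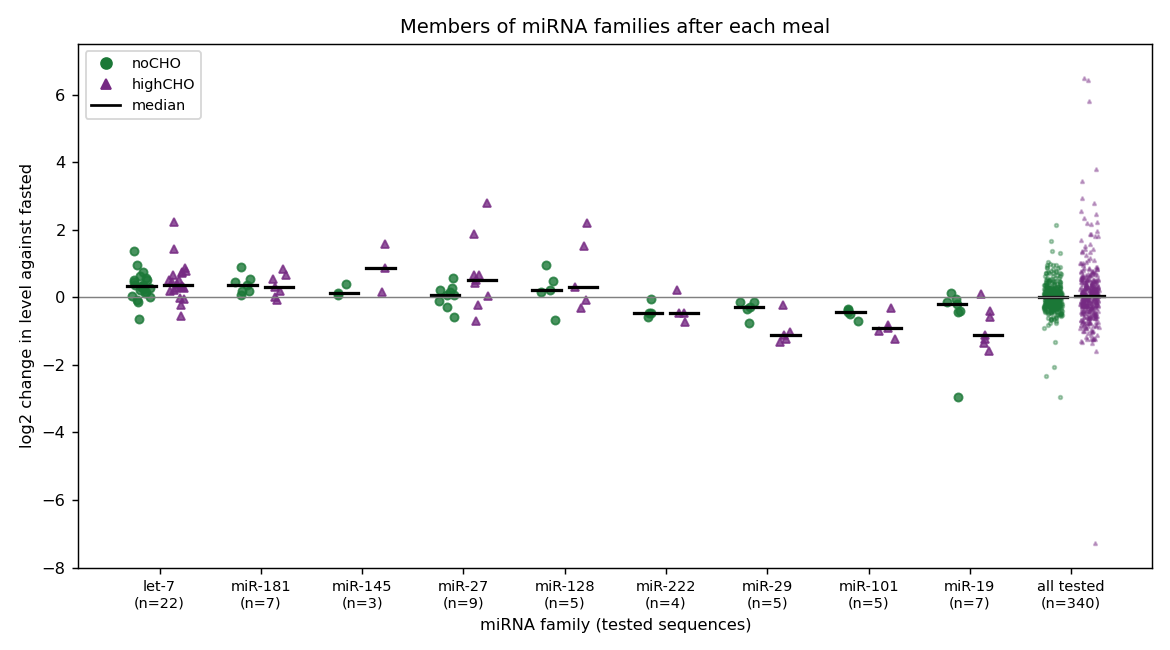
Log2 change against fasted fish of each tested sequence of 9 miRNA families and of all 340 tested sequences, with noCHO in circles and highCHO in triangles, and lines at the medians. The let-7 medians lie above 0 after both meals (0.32 and 0.36), while those of miR-29, miR-101 and miR-19 lie below it, with the lower median after highCHO in each.

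miR-145, which with miR-143 marks smooth muscle and fibroblast-like cells, gave the most abundant sequence past the threshold. The 3p arm ssa-miR-145-3p_L+2R-1 had 4767, 3181, 5135 and 3672 CPM in noCHO fish, 11560, 9444, 9750 and 7477 CPM in highCHO fish, and 4370, 2424, 3011 and 3032 CPM in fasted fish. All highCHO libraries lay well above the fasted range, whereas noCHO 21 and 33 lay within it. The arm rose 1.97-fold (log2 0.98, SE 0.20, adjusted p = 0.0332), but the log2 change was 0.38 (SE 0.22) after noCHO and 1.57 (SE 0.22) after highCHO, and the meals differed (1.19, SE 0.22, adjusted p = 0.0129). Among libraries under 8 M the change was 0.29 (SE 0.25, adjusted p = 0.667), and with the set as a term it was 0.87 (SE 0.30, adjusted p = 0.206). The call was also lost without fasted 8, 10 or 13 or highCHO 49, with adjusted p between 0.0510 and 0.154.

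No other tested sequence of miR-145 or miR-143 passed, and the cells that gave these reads were not identified. The 5p arm ola-miR-145_L+1R+4 averaged 2498 ± 1107 CPM in refed fish and 2256 ± 530 CPM in fasted fish (log2 0.15, SE 0.32), and ccr-miR-143 had a log2 change of 0.32 (SE 0.22). Of 14 fibroblast and smooth muscle sequences tested, 7 were higher after both meals, 1 was lower and 6 differed in sign, with a median of 0.10 that became −0.09 on library-total scaling and 0.030 without highCHO 38. Their summed level ran from 43720 to 77918 CPM in refed libraries and from 48302 to 61236 CPM in fasted libraries, so the groups overlapped. In whole liver, fewer cells of a type and less RNA per cell cannot be told apart.

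The remaining 2 higher sequences are shorter than a usual miRNA. ipu-miR-7550_L-1R-1, 16 nt long, had 102, 282, 440 and 311 CPM in noCHO fish, 411, 571, 615 and 511 CPM in highCHO fish, and 105, 64.6, 43.3 and 144 CPM in fasted fish. Only noCHO 20 lay within the fasted range, and the other 7 refed libraries lay above it. The sequence rose 4.30-fold (log2 2.11, SE 0.40, adjusted p = 0.0332), by 1.66 (SE 0.43) after noCHO and 2.55 (SE 0.44) after highCHO, with no difference between meals past the threshold (0.89, SE 0.42, adjusted p = 0.265). The log2 change was 1.34 (SE 0.52, adjusted p = 0.226) with the set as a term and 1.12 (SE 0.50, adjusted p = 0.376) among libraries under 8 M. The call was lost without fasted 7, 8 or 10 or highCHO 49 (adjusted p between 0.0510 and 0.154).

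The 18 nt candidate PC-5p-219_12291 was higher almost entirely through the highCHO meal. It had 333, 397, 644 and 492 CPM in noCHO fish, 1255, 2026, 2237 and 1436 CPM in highCHO fish, and 453, 364, 492 and 482 CPM in fasted fish. The noCHO libraries spanned the fasted range, and the highCHO libraries lay above all others. The mean of both meals rose 2.01-fold (log2 1.01, SE 0.22, adjusted p = 0.0447), with 0.060 (SE 0.24) after noCHO, 1.96 (SE 0.25) after highCHO and a difference between meals of 1.90 (SE 0.25, adjusted p = 0.00186). Among libraries under 8 M the sign turned (log2 −0.29, SE 0.22, adjusted p = 0.632), and with the set as a term the change was 0.51 (SE 0.29, adjusted p = 0.412). The call was lost without any 1 of fasted 7, 8, 10 or 13, noCHO 21 or 33, or highCHO 45 or 49, with adjusted p between 0.0510 and 0.170.

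Short inserts were more frequent on average in the refed libraries, through the highCHO libraries, and no test passed. Of the reads with an adapter, 15.4 ± 8.26% had an insert under 15 nt in refed fish and 9.59 ± 2.02% in fasted fish (SD, n = 8 and n = 4, two-sided exact permutation p = 0.198). By meal this was 9.70 ± 2.87% for noCHO and 21.2 ± 7.94% for highCHO (n = 4 each). Sequences of 18 nt or shorter, these 2 included, took 0.188 ± 0.0988% of miRNA counts in refed fish and 0.0910 ± 0.00670% in fasted fish (exact permutation p = 0.0727), with 0.113 ± 0.0441% for noCHO and 0.263 ± 0.0764% for highCHO. With the short-insert percent as a term, the log2 change of ipu-miR-7550_L-1R-1 was 1.93 (adjusted p = 0.140) and that of PC-5p-219_12291 was 0.76 (adjusted p = 0.185).

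Both sequences that fell belong to miR-19, a family of the miR-17-92 cluster, which in mouse and human favours cell growth. ssa-miR-19c-3p_R-1 had 190, 148, 246 and 240 CPM in noCHO fish, 123, 132, 115 and 99.4 CPM in highCHO fish, and 254, 292, 333 and 217 CPM in fasted fish. Of the refed libraries, 6 lay below the fasted range, and noCHO 31 and 33 lay within it. The level fell by 0.82 on the log2 scale (SE 0.18, adjusted p = 0.0447), with −0.41 (SE 0.21) after noCHO and −1.22 (SE 0.22) after highCHO. The change was −1.22 (SE 0.27, adjusted p = 0.0647) with the set as a term and −0.71 (SE 0.26, adjusted p = 0.303) among libraries under 8 M. The call was lost without any 1 of fasted 7, 8, 10 or 13, noCHO 20 or 21, or highCHO 45, 49 or 50, with adjusted p between 0.0510 and 0.227.

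dre-miR-19a-3p_L+1R-2 gave a like picture. It had 539, 316, 603 and 669 CPM in noCHO fish, 284, 262, 327 and 240 CPM in highCHO fish, and 602, 782, 927 and 553 CPM in fasted fish. Again 6 refed libraries lay below the fasted range while noCHO 31 and 33 lay within it. The level fell by 0.90 on the log2 scale (SE 0.21, adjusted p = 0.0468), with −0.43 (SE 0.25) after noCHO and −1.37 (SE 0.25) after highCHO, and was the last to pass the threshold. With the set as a term the change was −1.34 (SE 0.32, adjusted p = 0.0718), and among libraries under 8 M it was −0.77 (SE 0.30, adjusted p = 0.364). The call was lost without any 1 of fasted 7, 8, 10 or 13, noCHO 20, 21 or 31, or highCHO 45, 49 or 50, with adjusted p between 0.0510 and 0.265.

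Of the 7 miR-19 sequences tested, 6 were lower after both meals and ssa-miR-19d-3p_R-1 was higher after both (log2 0.11, SE 0.24), with a sign that turned on library-total scaling. The median log2 change of the family was −0.81, with −0.20 after noCHO and −1.11 after highCHO. dre-miR-19c-3p_1ss23GT, 2 bases longer than ssa-miR-19c-3p_R-1, had a log2 change of −0.81 (SE 0.24, adjusted p = 0.146) that came from one meal. It changed by −0.037 (SE 0.27) after noCHO and by −1.58 (SE 0.29) after highCHO, and the meals differed (−1.55, SE 0.29, adjusted p = 0.0129). dre-miR-19d-3p_1ss13TA did not pass (−0.65, SE 0.24, adjusted p = 0.222). Of the 24 sequences tested in the miR-17-92 list, these 7 included, 11 were lower after both meals, 4 were higher and 9 differed in sign, with a median of −0.28. By meal the median was −0.04 after noCHO and −0.49 after highCHO. It was −0.03 among libraries under 8 M (11 positive, 13 negative) and −0.47 on library-total scaling (2 positive, 22 negative). The most abundant member of the list, ssa-miR-92a-3p, had a log2 change of 0.14 (SE 0.11).

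miR-101, a family that in human cells represses the histone methyltransferase EZH2, was lower after both meals in all 5 sequences tested, with a median log2 change of −0.67 and none past the threshold. ola-miR-101b-5p was the nearest sequence outside the threshold. It had 255, 202, 426 and 364 CPM in noCHO fish, 274, 196, 292 and 266 CPM in highCHO fish, and 493, 646, 504 and 400 CPM in fasted fish. Only noCHO 31 lay within the fasted range, and the other 7 refed libraries lay below it. The log2 change was −0.85 (SE 0.21, adjusted p = 0.0722), with −0.71 (SE 0.25) after noCHO and −0.99 (SE 0.26) after highCHO. It passed without noCHO 31 (−0.95, adjusted p = 0.0388), with DESeq2 (−0.85, adjusted p = 0.00609) and with limma (−0.84, adjusted p = 0.0241).

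The miR-101-5p sequences with the seed CAGTTAT, from miR-101a and miR-101b, changed by nearly the same amount after each meal when summed. This sum leaves out ssa-miR-101b-5p, a 5p form with the seed AGTTATC, and so is not the whole 5p arm. Over the 3 sequences in the table with the seed CAGTTAT, the level was 650, 499, 733 and 621 CPM in noCHO fish, 642, 485, 608 and 721 CPM in highCHO fish, and 908, 1210, 954 and 893 CPM in fasted fish. No refed library overlapped the fasted range, which was the case for 2 of 219 seed groups (0.913%). The sum fell by 0.68 on the log2 scale (SE 0.16, adjusted p = 0.0412), with −0.66 (SE 0.19) after noCHO, −0.69 (SE 0.19) after highCHO and a difference of −0.03 between meals (SE 0.18, adjusted p = 0.964). A p that misses the threshold does not show that the meals acted alike. Among libraries under 8 M the change was −0.79 (adjusted p = 0.209) and with the set as a term −0.86 (adjusted p = 0.133). Of the 12 fits without 1 library, the call held in those without noCHO 31 and highCHO 38, and adjusted p ran from 0.0291 to 0.247 over all 12.

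The guide arm of miR-101 pointed the same way. dre-miR-101a had 510, 509, 596 and 476 CPM in noCHO fish, 425, 422, 243 and 429 CPM in highCHO fish, and 605, 805, 699 and 567 CPM in fasted fish, and only noCHO 31 reached the fasted range. Its log2 change was −0.58 (SE 0.17, adjusted p = 0.162). fru-miR-101b_2ss21AC22GT had a log2 change of −0.81 (SE 0.28, adjusted p = 0.222), with noCHO 31 above the whole fasted range at 2969 CPM.

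Of the 219 seed groups, 139 had the same sign after both meals (63.5%). Past the threshold were 5 groups (2.28%), 3 higher (1.37%) and 2 lower (0.913%). Besides the miR-101-5p seed, these were the seed groups of sequences named above, namely GATTCCT of miR-145-3p (log2 0.93, SE 0.18), CCGGCTC of miR-7550 (1.90, SE 0.39), CGTGGAC of the candidate (0.95, SE 0.21) and TGTGCAA of miR-19a (−0.96, SE 0.20). These 4 kept the call without noCHO 20, 21 or 31 or highCHO 38, and lost it without fasted 8 or 10, noCHO 33 or highCHO 45, 49 or 50. The TGTGCAA sum was the one of these 5 that passed with the set as a term (−1.42, adjusted p = 0.0432). The GTGCAAA sum, which holds most miR-19 sequences, did not pass (−0.39, adjusted p = 0.334).

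**Figure D3:**
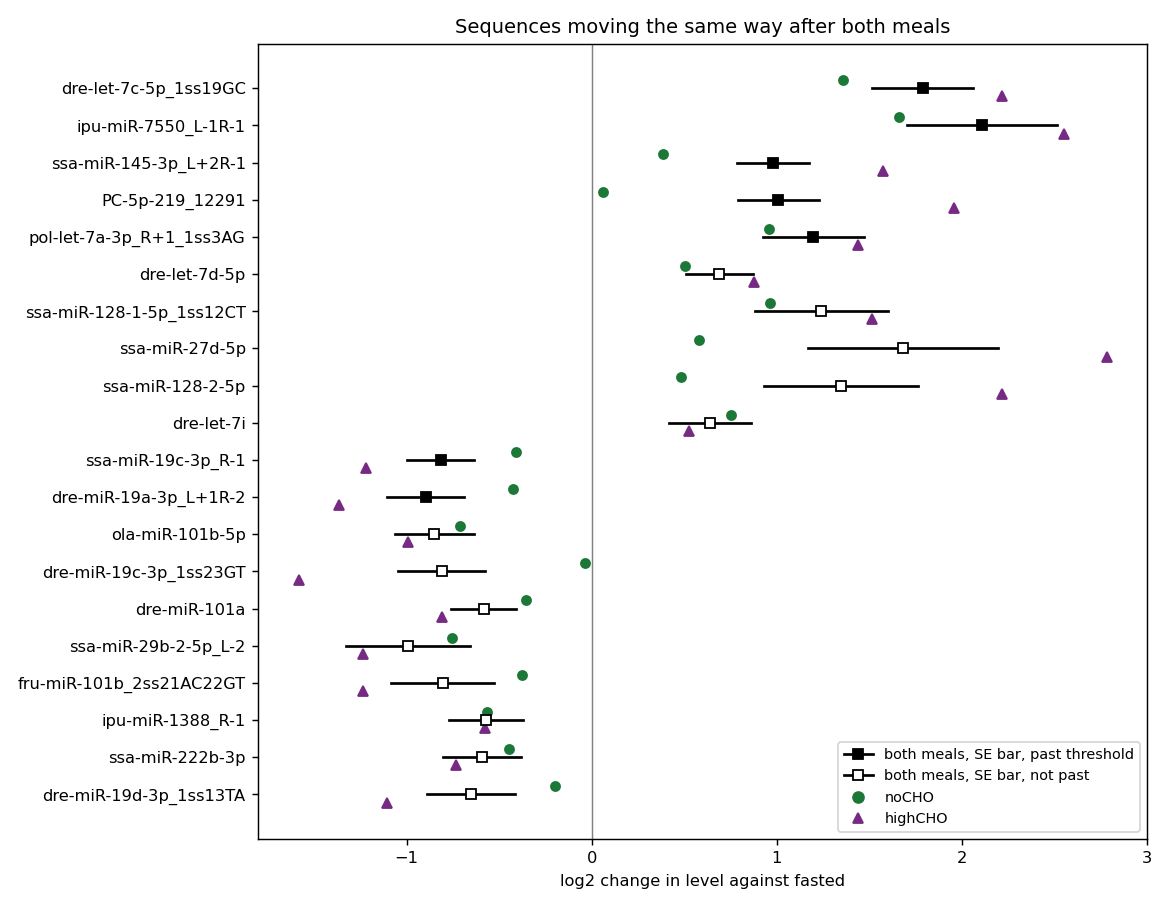
Log2 change against fasted fish of the 10 higher and 10 lower sequences with the smallest p, as squares with SE bars for the mean of both meals (filled when past the threshold), circles for noCHO and triangles for highCHO. Circles and triangles lie close together for dre-let-7i, ola-miR-101b-5p and ipu-miR-1388_R-1, and far apart for PC-5p-219_12291 (0.060 and 1.96) and dre-miR-19c-3p_1ss23GT (−0.037 and −1.58).

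Several further families were lower after both meals without a sequence past the threshold. All 5 tested miR-29 sequences were lower after both, with a median log2 change of −0.72 (−0.30 after noCHO, −1.11 after highCHO). They are from both arms: ssa-miR-29b-3p and dre-miR-29b carry the seed AGCACCA. The 5p sequences ssa-miR-29b-2-5p_L-2 and ssa-miR-29c-5p carry CTGATTT and CTGTTTT, and ipu-miR-29a_R+2 also carries CTGATTT. ssa-miR-29b-2-5p_L-2 had 413, 249, 996 and 407 CPM in noCHO fish, 333, 319, 358 and 470 CPM in highCHO fish, and 1384, 639, 919 and 540 CPM in fasted fish (log2 −0.99, SE 0.34, adjusted p = 0.222). Only noCHO 31 lay within the fasted range, and without it the sequence passed (−1.26, adjusted p = 0.0388).

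miR-222, which represses the cell-cycle inhibitor p27 in human cells, had 4 sequences tested, and 3 were lower after both meals. The 4 include ipu-miR-222a_1ss11TG, whose seed is GCTCAGT, while the others carry GCTACAT. ssa-miR-222a-3p_R-1 changed by −0.46 after each meal (both meals −0.46, SE 0.17, adjusted p = 0.222), and ssa-miR-222b-3p by −0.59 (SE 0.21, adjusted p = 0.222). The seed sum GCTACAT, shared by miR-221 and miR-222, had a log2 change of −0.48 (SE 0.14, adjusted p = 0.126).

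ipu-miR-1388_R-1, a fish miRNA, had the same small decrease after both meals. It had 65.4, 68.8, 48.1 and 51.7 CPM in noCHO fish, 79.2, 45.1, 66.3 and 42.0 CPM in highCHO fish, and 86.0, 81.4, 80.9 and 96.7 CPM in fasted fish. It was the only sequence with all 8 refed below all 4 fasted libraries (0.294% of those tested). Its log2 change was −0.57 (SE 0.20, adjusted p = 0.222), with −0.57 after noCHO and −0.58 after highCHO. With the set as a term the change was −0.26 (adjusted p = 0.719), and among libraries under 8 M it was −0.36 (adjusted p = 0.562). Of the 3 miR-1388 sequences tested, the other 2 differed in sign between meals. The family median was −0.07, with −0.26 after noCHO and 0.11 after highCHO.

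Among the 10 higher sequences with the smallest p, 3 others did not pass. ssa-miR-27d-5p, of a family tied to lipid metabolism in mouse, had 170, 74.2, 65.4 and 50.6 CPM in noCHO fish, 114, 690, 672 and 187 CPM in highCHO fish, and 46.4, 58.6, 76.4 and 58.8 CPM in fasted fish, with noCHO overlapping fasted (log2 1.68, SE 0.51, adjusted p = 0.163). It passed without highCHO 38 (1.83, adjusted p = 0.0479) and with DESeq2 (1.69, adjusted p = 0.00609). The abundant 3p form of miR-27d, dre-miR-27d_R-1_2ss11CT20TG, has another seed and had a log2 change of 0.05 (SE 0.23). ssa-miR-128-1-5p_1ss12CT (log2 1.24, SE 0.36, adjusted p = 0.146) and ssa-miR-128-2-5p (1.35, SE 0.41, adjusted p = 0.163) share a seed. Both were scarce, at 11.1 ± 3.34 and 21.3 ± 17.7 CPM in refed fish and 4.40 ± 2.83 and 6.86 ± 3.32 CPM in fasted fish (SD, n = 8 and n = 4). Of the 5 miR-128 sequences tested, these 2 were higher after both meals and 3 differed in sign, with a median log2 change of 0.06. Among those 3 was ssa-miR-128-3-5p, which has the same seed as the 2.

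A change of at least 0.5 on the log2 scale after each meal was found in 24 sequences in the higher direction (7.06%) and 8 in the lower (2.35%). Means stayed under 20 CPM in both refed and fasted fish for 11 of these 32, 7 higher and 4 lower. Outside the families above, the more abundant ones included fru-miR-7_R+2, with 121 ± 41.6 CPM in refed fish and 79.3 ± 16.7 CPM in fasted fish (0.64 after noCHO and 0.61 after highCHO). Between meals none of the 32 passed the threshold (smallest adjusted p = 0.0631), and for those with few counts such a difference may not be detectable at this depth. Asking for a change of at least 0.5 after each meal also leaves out sequences that moved after 1 meal only. The lack of a difference between meals is thus partly set by that choice.

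**Figure D4:**
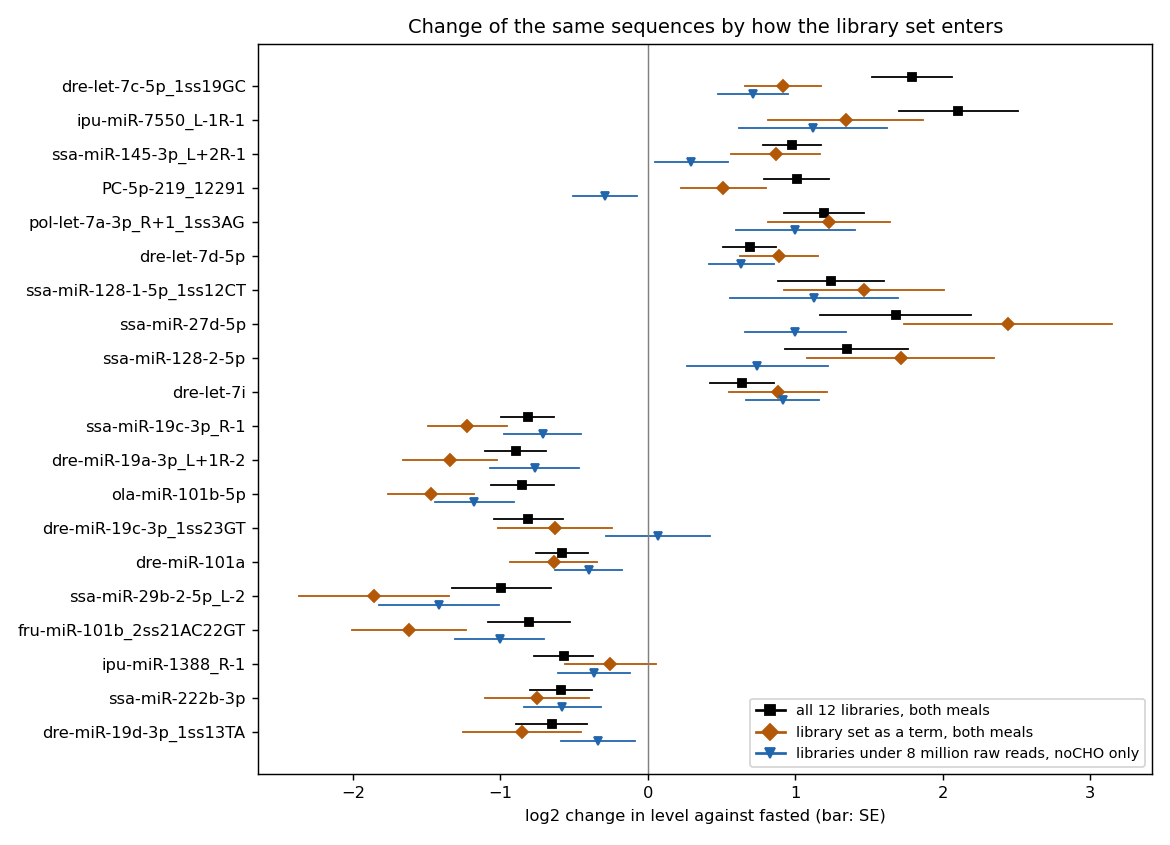
Log2 change against fasted fish with SE bars for the 20 named sequences, from all 12 libraries (squares), with the library set as a term (diamonds) and from noCHO 20 and 21 against fasted among libraries under 8 M raw reads (triangles). Within those libraries dre-let-7c-5p_1ss19GC is at 0.71 and ola-miR-101b-5p at −1.18, while PC-5p-219_12291 lies below 0 (−0.29) and dre-miR-19c-3p_1ss23GT above it (0.068).

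The lists tied to liver metabolism had medians near 0 in the fit of all libraries. Of 20 hepatocyte sequences 9 were higher after both meals, 6 lower and 5 of differing sign (median 0.09, and −0.10 without highCHO 38), and dre-miR-122_R-1 had a log2 change of 0.30 (SE 0.16, adjusted p = 0.388). Of 25 glucose and insulin sequences 9 were higher, 11 lower and 5 of differing sign (median −0.14, and 0.015 without fasted 13). Of 34 lipid and cholesterol sequences 13 were higher, 7 lower and 14 of differing sign (median 0.07). Of 16 sequences from miRNAs studied in trout feeding 6 were higher, 7 lower and 3 of differing sign (median −0.02, and between −0.20 and 0.063 with 1 library left out). The lists overlap, so their counts are not separate. For example, dre-miR-122_R-1 is in the hepatocyte and trout feeding lists, and ccr-miR-143 in the glucose and insulin and trout feeding lists. At an unadjusted p under 0.05 in edgeR, 0 hepatocyte sequences were higher and 5 lower, and 4 glucose and insulin sequences were higher and 5 lower. The counts were 5 higher and 2 lower for lipid and cholesterol, and 0 higher and 3 lower for trout feeding. Over all 340 tested, 28 were higher (8.24%) and 28 lower (8.24%). With the set as a term the medians were 0.02 for hepatocyte and −0.22 for glucose and insulin. They were 0.13 for lipid and cholesterol and −0.05 for trout feeding. Among libraries under 8 M they were, in the same order, −0.21, −0.16, 0.07 and −0.07. No sequence of these 4 lists passed the adjusted threshold. Scaling decides their sign counts, since on library totals, where the median of all tested sequences is −0.17, the medians were −0.09 for hepatocyte, −0.34 for glucose and insulin (5 positive, 20 negative), −0.10 for lipid and cholesterol and −0.19 for trout feeding (3 positive, 13 negative). Among their abundant members ssa-miR-26a-5p, dre-miR-30e-5p_R+2 and ccr-miR-143 had log2 changes of 0.11 (SE 0.15), 0.03 (SE 0.14) and 0.32 (SE 0.22).

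Markers of blood and immune cells were counted in the same way. All 5 erythrocyte sequences (miR-451 and miR-144) were lower after both meals, with a median of −0.33 and none past the threshold, and the most abundant, dre-miR-451_R-1, averaged 1105 ± 457 CPM in refed fish and 1558 ± 749 CPM in fasted fish. The summed erythrocyte level was highest in fasted 10, at 4829 CPM, and without that library the median was −0.014, with 2 positive and 3 negative. The erythrocyte median was −0.80 with the set as a term and −0.71 among libraries under 8 M, with all 5 negative in each. Of 13 leukocyte sequences 1 was higher after both meals, 4 were lower and 8 differed in sign (median −0.16). The most abundant were ssa-miR-146a-5p at −0.11 (SE 0.30) and ssa-miR-146d-5p at 0.08 (SE 0.29), both of differing sign between meals. Next came dre-miR-142a-5p at −0.51 (SE 0.19, edgeR unadjusted p = 0.0201, adjusted p = 0.222). The leukocyte median was 0.016 without fasted 7 (7 positive, 6 negative) and −0.32 on library totals (0 positive, 13 negative). For these sequences it was −0.42 with the set as a term (3 positive, 10 negative) and −0.40 among libraries under 8 M (2 positive, 11 negative). Their summed level ran from 19432 to 58165 CPM in refed libraries and from 31205 to 52877 CPM in fasted libraries. Of 7 sequences of miR-462 and miR-731, which interferon induces in fish, 1 was higher after both, 2 lower and 4 of differing sign (median −0.02, and between −0.12 and 0.037 with 1 library left out). With the set as a term this median was 0.37 (6 positive, 1 negative). Among libraries under 8 M it was 0.07 (5 positive, 2 negative). The part of blood and immune cells in the results above was not tested.

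Pancreas and epithelial markers were highest in highCHO 38. The summed pancreas level ran from 172 to 12792 CPM in refed libraries and from 152 to 337 CPM in fasted libraries. Of 5 pancreas sequences 1 was higher after both meals and 4 differed in sign (median 1.30, and −0.35 without highCHO 38). Of 7 epithelial sequences 1 was higher, 1 lower and 5 of differing sign (median 0.14, −0.21 without highCHO 38 and −0.013 on library totals). Without that library 9 sequences passed the main comparison, and they included the 7 that passed with it.

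The other cell types held few tested sequences. Of 3 muscle sequences 2 were higher after both meals (median 0.72, and 0.13 without highCHO 38). Of 3 endothelial sequences there was 1 in each class (median 0.12, and −0.06 on library totals), and the 1 neural sequence, dre-miR-9-5p, was lower after both (−0.78, SE 0.71, and −0.18 without fasted 8). Of 9 stress and hypoxia sequences 1 was higher, 1 lower and 7 of differing sign (median −0.05, and between −0.15 and 0.036 with 1 library left out). With the set as a term this median was −0.73 (1 positive, 8 negative). Among libraries under 8 M it was −0.32 (1 positive, 8 negative).

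The balance between arms and forms within a miRNA name was tested apart from its level. Forms were paired by name and arm, so they can differ in seed. Of 68 ratios of 5p to 3p arm and 43 ratios between sequences of 1 name and arm, 0 passed after Benjamini-Hochberg adjustment. These were two-sided exact permutation tests with 8 refed against 4 fasted libraries, and 9 had an unadjusted p under 0.05. The smallest p that 495 arrangements allow is 0.00202, which adjusts to 0.224 when 1 ratio of 111 reaches it, so a lone ratio could not pass. That p was reached by the ratio of ssa-miR-130b-2-5p_L-1 to ssa-miR-130b-5p, which was higher by 0.62 on the log2 scale in refed fish, with all 8 refed above all 4 fasted libraries. The ratio of ssa-let-7a-4-3p to pol-let-7a-3p_R+1_1ss3AG was lower by 1.03 in refed fish (−0.40 ± 0.46 in refed and 0.64 ± 0.50 in fasted fish, SD, n = 8 and n = 4, exact permutation p = 0.00606). The sequences of this pair have different seeds, TATACAG and TGTACAA. Its denominator is the let-7 arm that passed the threshold in refed against fasted fish, so this ratio is not separate from that rise.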

How the data were processed

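Small RNA libraries of 12 trout livers, 1 per fish, were grouped by the labels. The authors deposited read counts per library and, per miRNA sequence, an estimated count (85.1% of values whole, shared reads split into fractions) and a normalized signal, which was not used. The submitters' processing notes name Bowtie 1.1.1, and no genome build or miRNA database release was named in the sources. Estimated counts were rounded and tested in edgeR 4.0.16 (R 4.3.3) with TMM scaling and 1 quasi-likelihood fit of 3 groups (9 residual degrees of freedom), two-sided, with Benjamini-Hochberg adjustment and a threshold of 0.05. The expression filter by group kept 340 of 1696 sequences with 99.87% of counts, so a sequence could pass it through the group in which it is high. Each SE was the size of the log2 fold change divided by the square root of its F value. The 219 seed sums were scaled and fitted apart. Ratios used counts plus 0.5. Depth was 197684 to 3057706 counts per library, so counting error is largest in highCHO 49.

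The members, lists and tests were chosen with earlier results of these data known. Named sequences were up to 15 passing per direction with the same sign after both meals (PC names only among the first 5), filled to 10 by smallest unadjusted p, with the 3 most abundant tested members of each list, other arms and forms of named sequences and the 10 most abundant sequences. Families of named sequences, and sequences with changes of at least 0.5 after each meal, were described after their values were seen. Alternatives were other scalings and filters, DESeq2 1.42.0, limma 3.58.1, a robust fit, the 8 refed libraries as 1 group, terms for library set and short-insert percent, libraries under 8 M raw reads alone, seed sums and each library left out.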

Additional observations from a re-analysis of the deposited data

Results flagged for a closer look

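Of 189 groups of 4 libraries examined over 63 sequences, 18 held a library far from the other 3. The rule flags about 1 of 20 groups when values are independent and normally distributed. CPM values need not follow that and the groups share libraries, so the count is not read against chance. In highCHO 38 there were 7 such values, of which 3 belong to pancreas markers. They were 8261 CPM of ssa-miR-216b-5p, 2499.8 CPM of dre-miR-375, 1812 CPM of dre-miR-216b, 53161 CPM of ipu-miR-192, 26596 CPM of ccr-miR-143, 1896 CPM of fru-miR-200b_R+1 and 159.5 CPM of the muscle marker dre-miR-1. In highCHO 49, the shallowest library, dre-miR-101a was low at 243 CPM, and dre-miR-181a-5p and dre-miR-499-5p_R-1 were high at 15684 and 234 CPM. The erythrocyte miRNAs dre-miR-451_R-1 and fru-miR-144_L+1R-1 were high in noCHO 31, at 2027 and 1438 CPM, as was pol-miR-21-3p_R-1_1ss14AT at 1144 CPM. The miR-216b sequences were high in noCHO 20, at 19.2 CPM of ssa-miR-216b-5p and 13.5 CPM of dre-miR-216b. They were also high in fasted 7, at 78.6 CPM of ssa-miR-216b-5p and 26.6 CPM of dre-miR-216b, as was dre-miR-375 at 162 CPM.

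In edgeR's test of highCHO against noCHO, 8 of the 340 sequences passed, of which 3 had the same sign after both meals. The difference on the log2 scale was 1.19 for ssa-miR-145-3p_L+2R-1, 1.90 for PC-5p-219_12291 and −1.55 for dre-miR-19c-3p_1ss23GT. The epithelial marker fru-miR-200a_R-1, of opposite sign after the meals (−0.49 after noCHO and 0.76 after highCHO), differed by 1.25. No explanation of these values was tested.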

How the results depend on the processing

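Against 5 higher and 2 lower sequences, the count was 1 higher and 0 lower with library-total scaling, with the 8 refed libraries as 1 group, with the library set as a term and with the short-insert percent as a term, and 0 and 0 among libraries under 8 M raw reads (44 at an unadjusted p under 0.05 in edgeR). The 1 call with the set as a term, fru-miR-96_R-1, is not among the 7. Without a filter 1 sequence was lower, with DESeq2 4 were, with limma 6, and with seed sums 3 groups were higher. The 5 seed groups became 0 with library-total scaling and 0 among libraries under 8 M. Leaving out 1 library gave 0 to 6 higher sequences, 0 to 3 lower sequences and 0 to 7 seed groups. Among libraries under 8 M PC-5p-219_12291 was at −0.29 and dre-miR-19c-3p_1ss23GT at 0.068 on the log2 scale, both opposite in sign to the fit of all libraries. The cause was not tested. Median-ratio scaling and a robust fit each called the same 7. No paired analysis was possible because the groups share no fish numbers. The ratios gave 0 calls with every library left out in turn, in a design where a lone ratio can hardly pass. The composition measures gave 0 calls with all 12 libraries and 0 among libraries under 8 M raw reads. In that smaller set 15 arrangements allow no exact permutation p under 0.0667, so none could pass there. They were not fitted with single libraries left out. Scarce sequences rest on few reads, with a lowest count of 1 in a library for ssa-miR-128-1-5p_1ss12CT.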
